A study of Mus musculus with 16 samples.

Results

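Adamts4, a secreted protease that cuts the core proteins of brain extracellular matrix, had lower transcript levels in the hippocampus of mice on a ketogenic diet than on a standard diet, in wild type and in Kcna1 knockout animals alike. Its mean level was 24.2 ± 2.60 CPM (reads scaled to a common library size and given as CPM, ± SD, n = 4) in standard-fed and 15.0 ± 1.81 CPM (SD, n = 4) in ketogenic-fed wild types. Knockouts had 22.6 ± 2.91 CPM (SD, n = 4) when standard-fed and 11.5 ± 1.02 CPM (SD, n = 4) when ketogenic-fed. Between genotypes, which is a separate comparison, neither Adamts4 nor transcripts of the proteins it cuts and of their partners in the perineuronal net passed the test with all libraries. At most 0.0973% of all tested genes passed there, so this says little about these genes. The 10 genes described here are the lectican-cleaving proteases Adamts1, Adamts4, Adamts5 and Adamts9, the lecticans Bcan, Ncan, Vcan and Acan, the crosslinking glycoprotein Tnr and the link protein Hapln1. They were found by gene name among 49315 genes in the table of counts, and 10 of the 10 were among the 17469 genes that passed the filter on low counts. The set was chosen by the measured diet response of Adamts4, so the diet comparisons below are descriptive: they carry no p-value, and where a number of genes past the threshold is given for them it stands beside the share of all genes and supports nothing. Members are tested only between genotypes and for the dependence of the diet effect on genotype. For Adamts4 that dependence is built from the values that chose the set, so it too is descriptive.

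Lecticans are chondroitin sulfate proteoglycans with a long core protein that carries sulfated sugar chains. In the brain they bind hyaluronan through a domain at one end, an attachment that link proteins such as Hapln1 stabilize, and they are crosslinked by tenascin-R, the product of Tnr, at the other end. The condensed form of this matrix, the perineuronal net, wraps the cell bodies and proximal dendrites of many parvalbumin interneurons and, in the hippocampus, of pyramidal cells of area CA2. ADAMTS proteases cut the lectican core and so loosen the matrix, and their activity is set by secretion, by removal of a propeptide and by inhibitors such as TIMP3, none of which a transcript level measures. Oligodendrocytes, the myelinating glia, are a known source of Adamts4 in the adult brain.

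The study crossed genotype with diet in 4 groups of 4 mouse hippocampi: wild types and Kcna1 knockouts, each fed either a standard or a ketogenic diet. Standard-fed and ketogenic-fed below mean these diets. The product of Kcna1 is part of a voltage-gated potassium channel, and its loss gives a mouse model of epilepsy; a ketogenic diet is rich in fat and poor in carbohydrate. The labels give no age, sex, strain or length of diet, do not say how the knockout allele was made, and do not say whether the 4 samples of a group were littermates. Values are listed by library in this order: KC890RL, KC894RLL, KC897RR and KC900RLL for standard-fed wild types; KC872RL, KC873RR, KC888LL and KC893RL for standard-fed knockouts; KC842L, KC843RL, KC844RR and KC846L for ketogenic-fed wild types; KC913RR, KC916RRL, KC934R and KC935LL for ketogenic-fed knockouts.

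Total counts ran from 13440230 to 22309504. Kcna1 measured 107 to 130.1 CPM in the 8 wild type libraries and 43.4 to 47.2 CPM in 7 libraries labelled knockout, but 82.0 CPM in KC888LL, the library labelled knockout on the standard diet that stood apart. It was kept under its label, and what changes without it is stated with the results and, for gene lists, after them. The Y-linked gene Ddx3y was expressed in 1 wild type and 2 knockout libraries on the standard diet (KC890RL, KC872RL and KC873RR), in 1 ketogenic-fed wild type (KC846L) and in 0 of 4 ketogenic-fed knockouts, so Y-linked expression was not balanced over the groups. Genes typical of hippocampal neurons (9 of 9 tested) and of CA2 pyramidal cells (6 of 6) were present in every group, with summed levels of 6125 to 9296 CPM and 199.4 to 275.3 CPM per library.

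Compared per kilobase of exon, Bcan, Ncan and Tnr were the most abundant of the 10 transcripts and Acan and Adamts5 the least. In standard-fed wild types the order was Bcan at 73.6 ± 4.52 CPM per kb (SD, n = 4), Ncan at 29.6 ± 2.06, Tnr at 22.7 ± 1.21, Hapln1 at 7.59 ± 0.761, Adamts4 at 5.04 ± 0.541 and Adamts1 at 4.64 ± 0.777. Vcan followed at 1.99 ± 0.283 CPM per kb, then Adamts9 at 1.496 ± 0.158, Acan at 0.847 ± 0.138 and Adamts5 at 0.152 ± 0.0620. In that group only the ranges of Adamts4 and Adamts1, neighbours in the order, overlapped. On the ketogenic diet Adamts4 stood below Adamts1 in both genotypes. Its mean was 3.12 CPM per kb against 5.12 for Adamts1 in wild type and 2.40 against 5.93 in the knockout, and the ranges of these 2 genes were apart in both groups. In ketogenic-fed knockouts the range of Adamts4 overlapped that of Vcan, at 2.04 CPM per kb. These levels divide by the union of annotated exons, which can be longer than any one transcript of a gene with several isoforms.

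**Figure D1:**
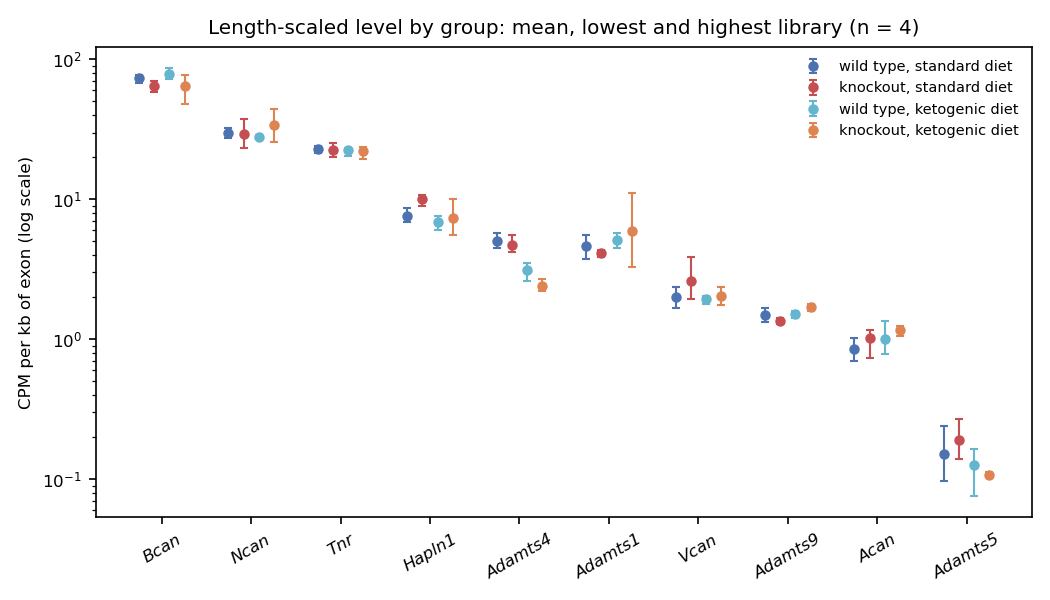
Length-scaled level of each of the 10 genes, in CPM per kb of exon on a log axis, by group (points are means, bars run from the lowest to the highest of 4 libraries). Bcan was highest and Adamts5 lowest in all 4 groups, and Adamts4 lay below Adamts1 on the ketogenic diet.

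The genes lie on 7 chromosomes in the GRCm38 assembly. Several lie next to a gene of the same matrix: Hapln1 lies 43.7 kb from Vcan on chromosome 13, Hapln2 21.5 kb from Bcan on chromosome 3, Hapln4 2.22 kb from Ncan on chromosome 8 and Hapln3 2 bases from Acan on chromosome 7. Adamts1 and Adamts5 are neighbours on chromosome 16 with 53.1 kb between them. Reads of Acan and Hapln3, whose ends nearly touch, could be shared if strand was not used in counting, which the sources used here do not say.

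Adamts4 (ENSMUSG00000006403, chromosome 1, 171250421 to 171260637, plus strand) encodes aggrecanase-1, which cuts aggrecan, brevican, neurocan and versican. It measured 27.7, 22.8, 24.7 and 21.8 CPM in standard-fed wild types and 21.2, 22.1, 26.8 and 20.2 CPM in standard-fed knockouts. Adamts4 read 12.6, 16.8, 15.97 and 14.6 CPM in ketogenic-fed wild types and 10.6, 11.6, 10.99 and 12.9 CPM in ketogenic-fed knockouts. Every ketogenic library lay below every standard diet library of its genotype, with a gap of 4.97 CPM for wild types and 7.25 CPM for knockouts, while the genotypes overlapped on each diet. The fitted log2 fold change with diet, which is the value that chose the set, was -0.69 ± 0.11 (SE) in wild type, or 38.2% lower, and -0.97 ± 0.11 (SE) in the knockout, or 49.0% lower. Between genotypes the log2 fold change, knockout against wild type, was -0.10 ± 0.11 (SE) among standard-fed mice, with an edgeR adjusted p of 0.716, and -0.38 ± 0.11 (SE) among ketogenic-fed mice, with one of 0.404. The standard-fed value was -0.20 without KC888LL, whose Adamts4 level was the highest of its group, and -0.03 without KC890RL. Averaged over diets it was -0.24 ± 0.08 (SE; edgeR, adjusted p = 0.161). Without KC888LL the averaged value was -0.29 and passed the threshold (edgeR, adjusted p = 0.0328), in a fit where 4.96% of all genes passed. It passed in none of the fits without 1 of the other libraries. The difference between the diet effects of the 2 genotypes was -0.28 ± 0.16 (SE), and -0.18 without KC888LL. It is built from the diet values that chose the set, so no p-value is given and nothing is read from it.

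Adamts1 (ENSMUSG00000022893, chromosome 16, 85793827 to 85803113, minus strand) encodes another aggrecanase, which also cuts versican. It measured 26.4, 29.3, 23.0 and 19.8 CPM in standard-fed wild types and 22.6, 20.7, 23.2 and 20.9 CPM in standard-fed knockouts. Adamts1 read 30.6, 23.8, 28.1 and 26.1 CPM in ketogenic-fed wild types and 59.3, 20.8, 17.3 and 28.4 CPM in ketogenic-fed knockouts. A single knockout library, KC913RR, held the high value, and the other 3 knockout libraries on that diet lay within or below the range of the remaining groups. KC913RR also had the highest level of the activity-induced transcription factor Fos among the 16 libraries, at 25.4 CPM against 1.38 to 6.73 CPM in the other knockout libraries on that diet and 8.01 to 20.8 CPM in wild type; the part of neuronal activity in the Adamts1 value was not tested. The genotype difference on the ketogenic diet was 0.21 ± 0.29 (log2, SE; edgeR, adjusted p = 0.856) and turned to -0.29 without KC913RR. Its log2 fold change with diet in the knockout was 0.52 ± 0.30 (SE), and 0.02 without KC913RR.

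Adamts5 (ENSMUSG00000022894, chromosome 16, 85856173 to 85901828, minus strand), the other major aggrecanase of cartilage, was near the limit of the data, with 15 to 50 counts per library. It measured 2.58, 1.62, 1.04 and 1.31 CPM in standard-fed wild types and 1.51, 2.91, 1.68 and 2.09 CPM in standard-fed knockouts. Adamts5 read 1.52, 1.35, 1.77 and 0.820 CPM in ketogenic-fed wild types and 1.20, 1.12, 1.22 and 1.12 CPM in ketogenic-fed knockouts. The 4 knockout libraries on the ketogenic diet were below the 4 on the standard diet, whereas the wild type groups overlapped. The diet log2 fold change was -0.80 ± 0.30 (SE) in the knockout and -0.28 ± 0.30 (SE) in wild type, where it was 0.03 without KC890RL and -0.44 without KC897RR. No genotype comparison passed the threshold (edgeR, adjusted p from 0.672 on the standard diet to 0.942 averaged over diets), and standard errors of 0.29 to 0.31 (log2) on each diet leave room for sizeable differences. The standard-fed genotype value of 0.31 was 0.09 without KC873RR and 0.63 without KC890RL, the ketogenic-fed one of -0.22 was -0.07 without KC844RR and -0.41 without KC846L, and the difference of diet effects, -0.53, was -0.31 without KC873RR and -0.84 without KC890RL.

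Adamts9 (ENSMUSG00000030022, chromosome 6, 92772699 to 92943492, minus strand) encodes a protease that cuts versican and aggrecan. It measured 25.0, 24.0, 21.1 and 19.9 CPM in standard-fed wild types and 19.8, 21.2, 21.3 and 19.5 CPM in standard-fed knockouts. Adamts9 read 23.9, 24.0, 21.6 and 21.5 CPM in ketogenic-fed wild types and 27.03, 26.7, 24.9 and 23.8 CPM in ketogenic-fed knockouts. Knockout libraries on the ketogenic diet were all above those on the standard diet, the opposite order to Adamts4, and the wild type groups overlapped. Its diet log2 fold change was 0.33 ± 0.08 (SE) in the knockout and 0.01 ± 0.08 (SE) in wild type. The difference of the diet effects was 0.31 ± 0.11 (SE), with an unadjusted p of 0.0130 in edgeR and an adjusted p of 0.654.

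**Figure D2:**
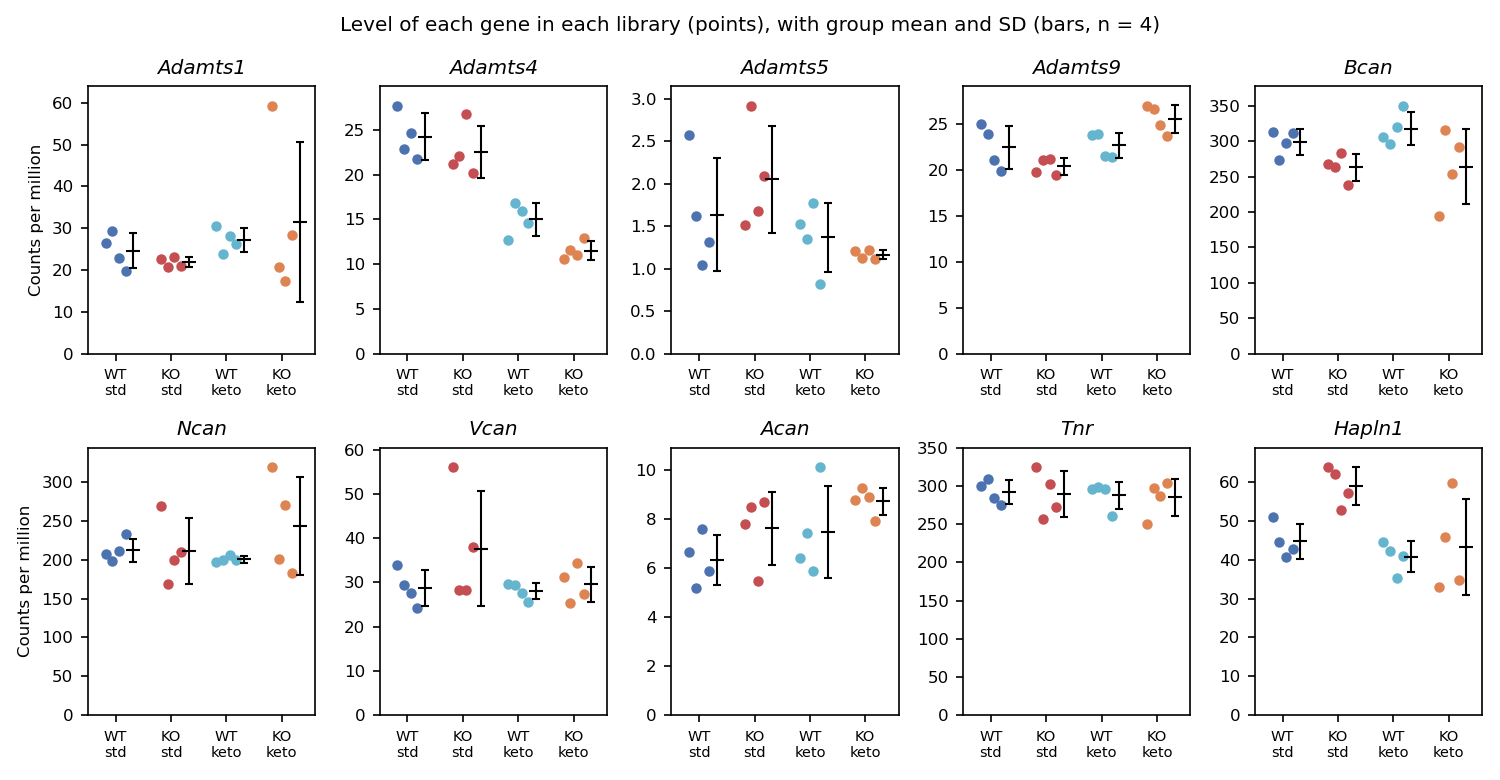
Level of each gene in CPM by library (points), with the group mean and SD (bar, n = 4 libraries), for wild type (WT) and knockout (KO) on the standard (std) and ketogenic (keto) diets; each panel has its own axis from 0. Adamts4 ran from 20.2 to 27.7 CPM in the 8 standard diet libraries and from 10.6 to 16.8 CPM in the 8 ketogenic ones, and single libraries stood out for Adamts1 and Vcan.

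Among the substrates, Bcan (ENSMUSG00000004892, chromosome 3, 87987531 to 88000230, minus strand) encodes brevican, the most abundant of the 4 lectican transcripts here. It measured 313, 274, 298 and 312 CPM in standard-fed wild types and 268, 264, 284 and 238 CPM in standard-fed knockouts. Bcan read 306, 297, 319.9 and 350.4 CPM in ketogenic-fed wild types and 195, 316, 253 and 293 CPM in ketogenic-fed knockouts. Knockout means were lower on both diets, but the groups overlapped; on the standard diet the overlap lay between KC894RLL in wild type and KC888LL in the knockout. Averaged over diets the log2 fold change was -0.22 ± 0.08 (SE), or 14.4% lower, with an unadjusted p of 0.00961 and an adjusted p of 0.183 in edgeR. Leaving out any 1 library gave values from -0.28 to -0.16, and the adjusted p stayed above the threshold in each of these fits. Without KC913RR, which had the lowest Bcan level, the ketogenic-fed difference of -0.27 was -0.15. With diet, the log2 fold change was 0.09 ± 0.11 (SE) in wild type, and 0.04 without KC846L. In the knockout it was 0.00 ± 0.11 (SE), from -0.09 without KC916RRL to 0.12 without KC913RR.

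Ncan (ENSMUSG00000002341, chromosome 8, 70093085 to 70120873, minus strand) encodes neurocan, a lectican made by neurons and astrocytes. It measured 207, 199, 211 and 234 CPM in standard-fed wild types and 270, 168, 199 and 211 CPM in standard-fed knockouts. Ncan read 197, 199.6, 207 and 199.9 CPM in ketogenic-fed wild types and 319, 201, 270.3 and 184 CPM in ketogenic-fed knockouts. Wild type libraries lay close together, and 3 knockout libraries, KC913RR, KC934R and KC872RL, held the highest values. Those 3 libraries had Gfap, the intermediate filament gene of reactive astrocytes, at 2018, 1059 and 2327 CPM, against 294 to 390.4 CPM in wild type. KC873RR, however, had Gfap at 1340 CPM and the lowest Ncan of the series, and the part of astrocyte reactivity in the Ncan values was not tested. On the ketogenic diet the genotype difference was 0.28 ± 0.16 (log2, SE; edgeR, adjusted p = 0.602) and 0.12 without KC913RR. On the standard diet it was 0.00 ± 0.16 (SE; edgeR, adjusted p = 0.995), with values from -0.14 without KC872RL to 0.09 without KC873RR. The diet log2 fold change of Ncan was -0.08 in wild type and 0.20 in the knockout. In the knockout it ran from 0.04 without KC913RR to 0.34 without KC872RL. The astrocyte list (10 of 10 tested, without Gfap) had a summed level of 4527 to 5780 CPM over the libraries and 0 called genes in every comparison with all libraries.

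Vcan (ENSMUSG00000021614, chromosome 13, 89655312 to 89742509, minus strand) encodes versican, which in the adult brain is made in part by cells of the oligodendrocyte lineage. It measured 33.9, 29.5, 27.5 and 24.1 CPM in standard-fed wild types and 56.0, 28.3, 28.2 and 37.9 CPM in standard-fed knockouts. Vcan read 29.6, 29.3, 27.6 and 25.6 CPM in ketogenic-fed wild types and 31.1, 25.4, 34.3 and 27.3 CPM in ketogenic-fed knockouts. KC872RL alone was far above the rest. The log2 difference between genotypes on the standard diet was 0.39 ± 0.19 (SE; edgeR, adjusted p = 0.355) and 0.13 without KC872RL. With diet, the log2 fold change of Vcan was -0.04 in wild type and -0.35 in the knockout. The knockout value ran from -0.46 without KC873RR to -0.09 without KC872RL. In KC872RL the oligodendrocyte precursor list (7 of 7 tested) summed to 531 CPM, against 176 to 269.5 CPM in the other 15. One gene carried that sum, Gpr17, a receptor gene of differentiating precursors, at 387 CPM against 31.98 to 113 CPM elsewhere. Without Gpr17 the list summed to 144 CPM in KC872RL and 140.4 to 176 CPM in the other 15, and Pdgfra, the receptor gene of precursors, was at 40.8 CPM, the lowest of the 16 libraries. The part of these cells in the Vcan value was not tested.

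Acan (ENSMUSG00000030607, chromosome 7, 79053483 to 79115099, plus strand) encodes aggrecan, the lectican on which the perineuronal net depends. With 77 to 222 counts per library it measured 6.66, 5.18, 7.58 and 5.88 CPM in standard-fed wild types and 7.80, 8.51, 5.46 and 8.69 CPM in standard-fed knockouts. Acan read 6.40, 7.45, 5.89 and 10.1 CPM in ketogenic-fed wild types and 8.76, 9.27, 8.90 and 7.93 CPM in ketogenic-fed knockouts. The groups overlapped in every comparison. Averaged over diets Acan was 18.2% higher in the knockout, or 0.24 ± 0.12 in log2 (SE; edgeR, adjusted p = 0.346). The ketogenic-fed difference of 0.22 was 0.40 without KC846L and 0.12 without KC844RR. With diet, the log2 fold change of Acan was 0.24 in wild type, from 0.06 without KC846L to 0.34 without KC844RR. In the knockout it was 0.20, from 0.07 without KC888LL to 0.26 without KC893RL.

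Tnr (ENSMUSG00000015829, chromosome 1, 159523769 to 159931729, plus strand), which crosslinks the lecticans, had log2 fold changes of at most 0.02 in size in every comparison with all libraries, and from -0.07 to 0.06 with 1 library left out. It measured 300.3, 309, 284 and 275 CPM in standard-fed wild types and 325, 257, 303 and 273 CPM in standard-fed knockouts. Tnr read 296, 299, 296 and 261 CPM in ketogenic-fed wild types and 251, 298, 287 and 305 CPM in ketogenic-fed knockouts. Its genotype log2 fold change was -0.01 ± 0.08 (SE) on either diet (edgeR, adjusted p = 0.959 on the standard and 0.967 on the ketogenic diet), and its diet log2 fold change was -0.02 ± 0.08 (SE) in either genotype.

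Hapln1 (ENSMUSG00000021613, chromosome 13, 89539796 to 89611652, plus strand) encodes the cartilage link protein, which holds lecticans to hyaluronan in the net. It measured 51.1, 44.5, 40.8 and 42.7 CPM in standard-fed wild types and 63.8, 62.2, 52.8 and 57.3 CPM in standard-fed knockouts. Hapln1 read 44.6, 42.3, 35.4 and 41.1 CPM in ketogenic-fed wild types and 32.9, 46.0, 59.7 and 34.8 CPM in ketogenic-fed knockouts. On the standard diet every knockout library was above every wild type library, by at least 1.62 CPM, but on the ketogenic diet the groups overlapped widely, with KC934R alone as high as the knockout on the standard diet. Among standard-fed mice the genotype difference was 0.40 ± 0.15 (log2, SE), or 31.7% higher, with an unadjusted p of 0.0164 in edgeR and an adjusted p of 0.255. On the ketogenic diet it was 0.09 ± 0.15 (SE; edgeR, adjusted p = 0.883) and turned to -0.11 without KC934R. The difference between the diets, -0.31 ± 0.21 (SE), did not pass the threshold either (edgeR, adjusted p = 0.761), and ran from -0.51 without KC934R to -0.20 without KC913RR. The diet log2 fold change was -0.44 ± 0.15 (SE) in the knockout, -0.64 without KC934R, and -0.13 ± 0.15 (SE) in wild type, -0.06 without KC890RL.

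Between genotypes, 0 of the 10 genes passed an adjusted p of 0.05 in edgeR in any of the 4 tested comparisons. Of all 17469 tested genes, 0.00572% passed among standard-fed mice, 0.0172% among ketogenic-fed mice, 0.0973% averaged over diets and 0% (0 genes) in the difference of diet effects. At an unadjusted p under 0.05 the members numbered 1, 3, 3 and 1 in these comparisons, and all genes numbered 2504, 1610, 2767 and 1306. DESeq2 called 177 genes among standard-fed mice, 33 among ketogenic-fed mice, 416 averaged over diets and 7 in the difference of diet effects. It called 0 of the members in any of the 4. Few genes passed in edgeR, and the counts of either method say little about the members. The genotype comparisons share their libraries with the diet comparisons that chose the set, and the difference of diet effects is built from them. Nothing is read from that difference for Adamts4. The members' median log2 fold change was -0.01 for standard-fed mice, 0.08 for ketogenic-fed mice, 0.03 averaged over diets and -0.07 for the difference, against medians of 0.00, 0.00, 0.01 and 0.00 over all tested genes. With 1 library left out the members' medians ran from -0.07 to 0.07, -0.01 to 0.15, 0.00 to 0.09 and -0.13 to -0.04. The libraries of the 2 genotypes did not overlap for 1 member (Hapln1) on the standard diet, where 5.86% of all tested genes did not overlap, and for 0 members on the ketogenic diet, where 3.98% did not. Without KC888LL, 1 member (Adamts4) passed averaged over diets, and 880 genes were called in place of 17.

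**Figure D3:**
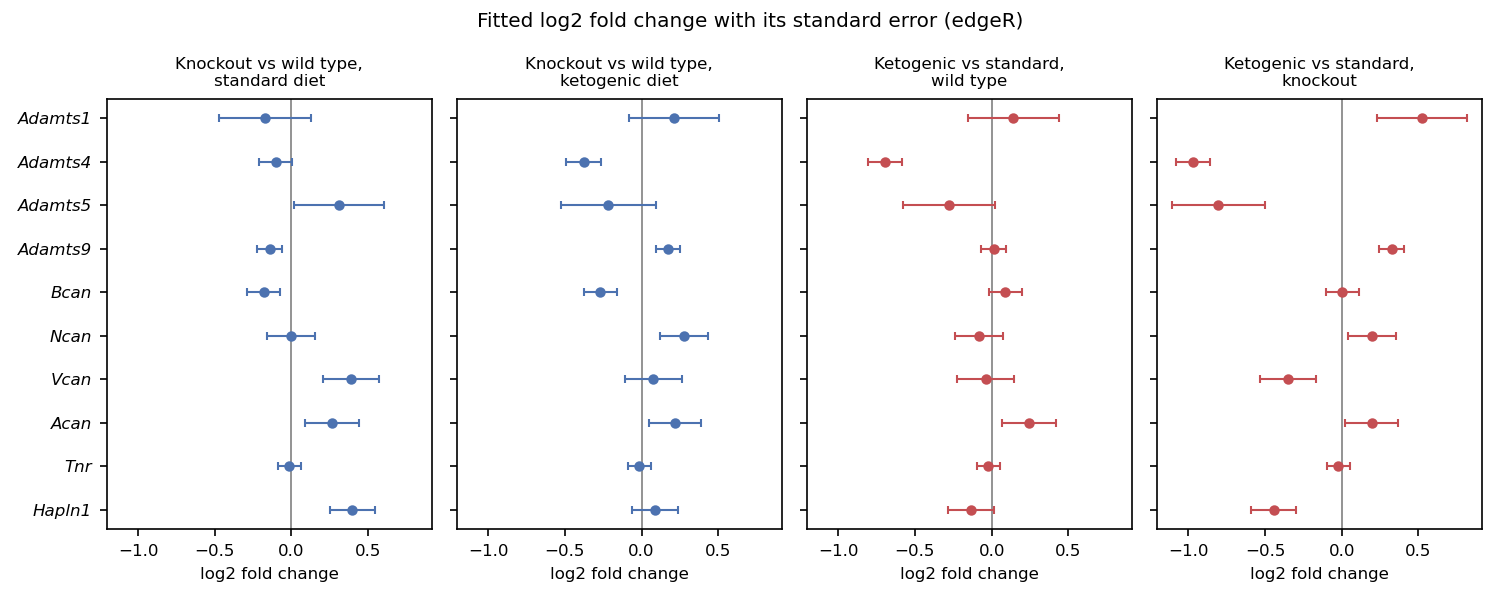
Fitted log2 fold change with its standard error (edgeR, 4 libraries per group) of the 10 genes for knockout against wild type on each diet and for the ketogenic against the standard diet in each genotype; the 2 diet panels show the contrasts used to choose the set and are descriptive. Adamts4 was at -0.69 and -0.97 in the diet panels, while in the genotype panels the points lay between -0.38 and 0.40.

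For the diet comparisons, from which nothing is read because they chose the set, Adamts4 was the 1 member past the adjusted threshold in each genotype, but in wild type 7 of the 8 fits without 1 library ended that call. Its log2 fold change in these 8 fits was -0.75 to -0.62, against -0.69 with all libraries. In wild type 0.0114% of tested genes passed (0.00572% lower on the ketogenic diet, which is Adamts4 alone), and in the knockout 1.16% passed (0.95% lower). Groups did not overlap for 1 member in wild type (Adamts4), beside 4.88% of all genes, and for 3 in the knockout (Adamts4 and Adamts5 lower, Adamts9 higher), beside 6.39%. The median over the members was -0.03 in wild type and -0.01 in the knockout and 6 and 5 of the 10 were lower, beside medians of 0.00 and 0.01 over all tested genes; with 1 library left out the members' medians ran from -0.05 to 0.04 and from -0.07 to 0.03. In the 12 libraries without Ddx3y the log2 fold change of Adamts4 with diet was -0.62 in wild type and -1.03 in the knockout. Of the standard-fed knockouts that set keeps only KC888LL, whose Kcna1 level stood apart, and KC893RL. The part of smaller groups in the calls lost in that set, here and below, was not tested.

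Among 15420 genes with a mean of at least 1 CPM, the 8 with the highest Pearson's r with Adamts4 in log2 CPM over the 16 libraries included Phldb1 (0.94), Gjb1 (0.94), Gna12 (0.94), Prr18 (0.93), Mag (0.93), Mbp (0.91) and Tmem125 (0.90). Mag and Mbp encode myelin proteins and Gjb1 a connexin of oligodendrocytes. Of the 14 oligodendrocyte genes listed, 14 were among the 100 genes most alike. By Spearman's rho 13 were, and after the group means were removed 1 was. Of the other cell lists, blood had 3 of 4 genes compared among the 100 by Pearson's r and 0 by the other measures, and the precursor list had 2 of 7 by Spearman's rho and 0 by the other measures. Within groups r was 0.51 to 0.78 for the 8 genes. These coefficients describe 16 libraries that share group and diet, and no p is given. For the other members the most alike genes were Trib1 for Adamts1 (r = 0.88, but 0.28 without the 2 farthest libraries), Kif5b for Adamts5 (0.87), Pcnx for Adamts9 (0.87), F730043M19Rik for Bcan (0.93), Ncan with Col4a1 (0.89), Vcan with Cfl2 (0.93), Acan with Ap1b1 (0.84), Tnr with Lrrfip2 (0.81) and Hapln1 with Thbs4 (0.88). None of these was an oligodendrocyte list gene.

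Over the 45 pairs of members, r ran from -0.66 (Adamts1 and Hapln1) to 0.58 (Vcan and Hapln1), the latter 0.36 after group means were removed. Adamts4 had r = 0.53 with Adamts5, -0.58 with Adamts9 and 0.19 with Bcan, its substrate; after group means were removed these were 0.13, 0.21 and 0.41, so that the sign for Adamts9 turned.

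The oligodendrocyte genes were lower on the ketogenic diet together with Adamts4. In wild type 14 of 14 were lower, with a median log2 fold change of -0.49 and 0 past the adjusted threshold. In the knockout 14 of 14 were lower, with a median of -0.86, and 11 passed, against a median of 0.01 over all tested genes, 0.95% of which passed as lower. Leaving out 1 library at a time kept 14 of 14 lower in each genotype, and in the knockout 3 to 12 passed, the fewest without KC872RL; without KC888LL 11 passed. In the 12 libraries without Ddx3y, 14 of 14 were again lower in each genotype and 0 passed in either, with only KC888LL and KC893RL left as standard-fed knockouts. Mbp, the myelin basic protein gene, measured 2423 ± 404 CPM (SD, n = 4) in standard-fed wild types, 2237 ± 133 in standard-fed knockouts, 1731 ± 135 in ketogenic-fed wild types and 1236 ± 323 in ketogenic-fed knockouts. The diet log2 fold change of Mbp was -0.49 ± 0.16 (SE) in wild type and -0.86 ± 0.16 (SE) in the knockout. Between genotypes 14 of 14 were lower in ketogenic-fed knockouts, with a median of -0.40 (-0.23 without KC913RR), and 0 passed (edgeR, with 7 at an unadjusted p under 0.05). On the standard diet the median was -0.01, and ran from -0.15 without KC900RLL to 0.09 without KC890RL. In bulk tissue fewer oligodendrocytes and less RNA per oligodendrocyte cannot be told apart.

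After these genes were subtracted, the Adamts4 values of the 2 diets overlapped in each genotype. The mean log2 CPM of the 14 genes was subtracted from that of Adamts4 in each library. The result was -2.38 ± 0.20 (SD, n = 4) in standard-fed wild types and -2.59 ± 0.20 on the ketogenic diet. In the knockout it was -2.49 ± 0.22 on the standard diet and -2.54 ± 0.23 on the ketogenic diet. The diet difference of this relative level was -0.22 in wild type and -0.05 in the knockout, where that of Adamts4 in log2 CPM was -0.69 and -0.96 and that of the 14-gene mean -0.47 and -0.90. With the 14-gene mean as a covariate in the edgeR fit, whose slope is set by all libraries, the diet log2 fold change of Adamts4 was -0.53 in wild type and -0.67 in the knockout. The subtraction takes a slope of 1 between Adamts4 and the list and the covariate does not, and the part of oligodendrocytes in the Adamts4 difference was not tested.

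**Figure D4:**
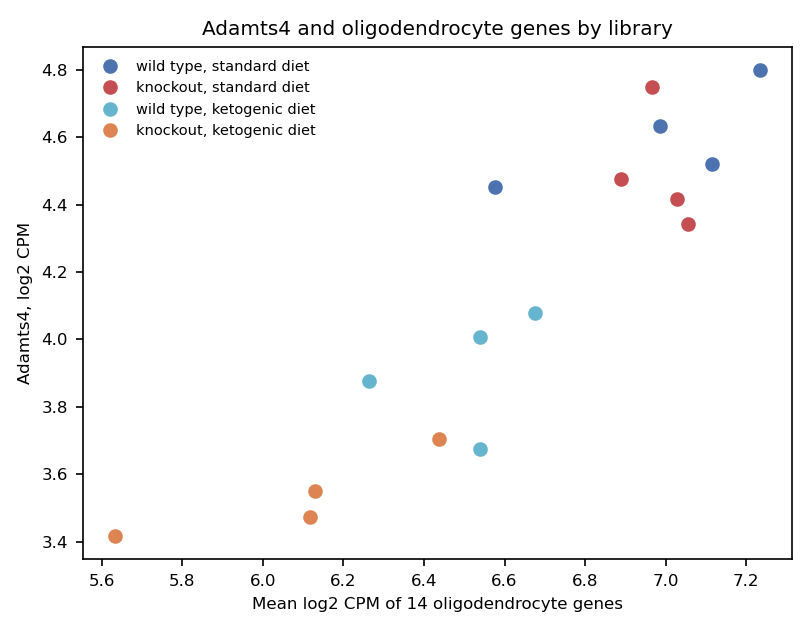
Adamts4 in log2 CPM against the mean log2 CPM of 14 oligodendrocyte genes in each of the 16 libraries, coloured by group. The 4 knockout libraries on the ketogenic diet lie lowest on average on both axes, with group means of 6.08 for the 14 genes against 6.98 in each standard-fed group.

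Markers of other cells stand beside these values. The microglia list (6 of 6 tested) had a median of -0.64 in log2 with diet in the knockout, and of -0.08 in wild type. The wild type median ran from -0.13 without KC846L to -0.03 without KC843RL. In the knockout 1 gene passed (Itgam), a count that none of the 8 fits without 1 library gave: 5 passed without KC888LL or KC893RL and 0 in each of the other 6. It was also 0 in the 12 libraries without Ddx3y, where the median was -0.15. The summed level of the list was 312 CPM in KC872RL and 298 CPM in KC873RR but 163 CPM in each of the other 2 standard-fed knockouts, against 143 to 154 CPM in ketogenic-fed knockouts and 156 to 184 CPM in wild types. The blood list (5 of 5 tested) had a median of -2.02 with diet in the knockout, with 4 genes passing (0 in the 12 libraries without Ddx3y, median -1.79), and summed to 17.4 to 32.5 CPM in ketogenic-fed knockouts against 42.7 to 113 CPM elsewhere. The part of microglia and residual blood in the Adamts4 values was not tested. The parvalbumin interneuron list (8 of 8 tested), whose cells carry many of the nets, had medians of 0.05 with diet in either genotype (0.01 to 0.10 with 1 library left out) and 0 called genes in all 6 comparisons with all libraries. For Pvalb itself the level was 19.2 ± 2.16 CPM (SD, n = 4) in standard-fed wild types, 21.4 ± 0.914 in standard-fed knockouts, 22.9 ± 2.05 in ketogenic-fed wild types and 22.0 ± 4.07 in ketogenic-fed knockouts. The hippocampal neuron, CA2, endothelial and oligodendrocyte precursor lists had 0 called genes in all 6 comparisons with all libraries. Of the hippocampal neuron genes 8 of 9 were higher with diet in each genotype, with medians of 0.13 in wild type and 0.14 in the knockout. These ran from 0.03 to 0.18 and from 0.10 to 0.24 with 1 library left out. Of the CA2 genes 4 of 6 were lower with diet in wild type and 5 of 6 in the knockout. With diet, 7 of 7 precursor genes were lower in wild type, with a median of -0.13, and 5 of 7 in the knockout, with a median of -0.21 (-0.14 without KC893RL).

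With all libraries the wider pathway gave 0 called genes in each of 7 lists in the 4 tested comparisons, and 2 genes in the diet comparison of the knockout, in which 1.16% of all tested genes passed. The other lectican-cleaving proteases, Adamts8, Adamts15 and Adamts20 (3 of 3 tested), had medians of -0.04 with diet in wild type and 0.17 in the knockout. In wild type this ran from -0.13 without KC894RLL to 0.01 without KC843RL, and in the knockout it was 0.07 without KC913RR. Of the remaining ADAMTS and ADAMTS-like genes 16 of 17 were tested, and 1 passed, Adamtsl4, which encodes a fibrillin-binding protein without protease activity. With diet Adamtsl4 stood at -0.89 ± 0.16 (log2, SE) in the knockout and -0.31 ± 0.16 in wild type. It no longer passed without KC872RL or in the 12 libraries without Ddx3y. With 1 library left out its value in the knockout ran from -1.08 to -0.76. Among 7 inhibitors and activating proteases 1 passed, Pcsk6, which encodes a proprotein convertase, at -0.67 ± 0.15 (SE) in the knockout and -0.10 ± 0.16 in wild type. The pass of Pcsk6 was lost in 5 of the 8 fits without 1 library (KC872RL, KC873RR, KC893RL, KC913RR or KC916RRL) and in the 12 libraries without Ddx3y. Over those 8 fits its log2 fold change in the knockout ran from -0.81 to -0.54. In these 2 genes the difference between genotypes in the diet effect was -0.57 ± 0.23 for Adamtsl4 and -0.57 ± 0.22 for Pcsk6 and did not pass (edgeR, adjusted p = 0.654 for both). Timp3, the inhibitor of the aggrecanases, was at 67.5 ± 7.58 CPM in standard-fed and 66.3 ± 5.29 CPM in ketogenic-fed wild types (SD, n = 4), and at 73.9 ± 4.07 CPM in standard-fed and 65.7 ± 6.03 CPM in ketogenic-fed knockouts.

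Matrix metalloproteinases (6 of 7 tested) had 0 called genes. Mmp9, which also cuts net components, was low, at group means of 1.72 to 2.17 CPM. Link proteins and hyaluronan enzymes (11 of 11 tested) had 0 called. Hapln4, the link protein paired with brevican at nerve terminals, stood at 54.3 CPM per kb, above Hapln1, in standard-fed wild types, and had genotype log2 fold changes of 0.12 ± 0.11 (SE; edgeR, adjusted p = 0.651) in standard-fed and 0.21 ± 0.11 (SE; edgeR, adjusted p = 0.572) in ketogenic-fed mice. These were 0.04 without KC893RL and 0.13 without KC934R. Hapln2, the link protein of nodes of Ranvier on myelinated axons, had diet log2 fold changes of -0.33 ± 0.15 (SE) in wild type and -0.35 ± 0.16 (SE) in the knockout. Tenascin and net receptor genes (10 of 10 tested) had 0 called. Tnc, the tenascin of reactive glia, had a genotype difference of 0.88 ± 0.36 (log2, SE; edgeR, adjusted p = 0.492) on the ketogenic diet, with knockout libraries from 11.1 to 43.1 CPM. Without KC913RR that difference was 0.29. Ptprz1, whose secreted form is the proteoglycan phosphacan, had 0.15 ± 0.08 (SE; edgeR, adjusted p = 0.583) in that comparison, and 0.07 without KC934R. Averaged over diets the genotype log2 fold change was 0.02 ± 0.07 (SE) for Cspg4, the NG2 proteoglycan, and -0.08 ± 0.06 (SE) for Cspg5, neuroglycan C. With 1 library left out Cspg4 ran from -0.02 to 0.07 and Cspg5 from -0.10 to -0.03. Chondroitin sulfate synthesis genes (18 of 19 tested) had 0 called and medians of -0.04 to 0.03 in the 6 comparisons (-0.07 to 0.07 with 1 library left out). Chst3, which sulfates chondroitin at the position associated with plastic matrix, measured 5.35 ± 0.967 CPM in standard-fed and 4.30 ± 0.573 CPM in ketogenic-fed wild types (SD, n = 4), and 6.11 ± 2.98 CPM in standard-fed and 4.65 ± 1.47 CPM in ketogenic-fed knockouts.

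Leaving out KC888LL added calls in several lists, in fits where many more of all genes were called too: 5.73% between genotypes on the standard diet, 4.96% averaged over diets and 6.18% with diet in the knockout. Nothing is read from a single call in a list beside such shares. Between genotypes on the standard diet it gave 1 call each among the protease inhibitors and activators (higher in the knockout), the matrix metalloproteinases (lower) and the chondroitin sulfate synthesis genes (higher), 3 in the microglia list (higher) and 3 in the hippocampal neuron list (1 higher, 2 lower). Averaged over diets it gave 1 call each in the wider ADAMTS family (higher), the metalloproteinases (lower), the chondroitin sulfate genes, the parvalbumin list and the endothelial list (higher in these 3), and 3 in the hippocampal neuron list (1 higher, 2 lower). With diet in the knockout it gave 1 call each in the metalloproteinase, chondroitin sulfate and parvalbumin lists (higher) and in the astrocyte and CA2 lists (lower), and 2 in the hippocampal neuron list (higher). Other libraries left out also gave calls in lists that had 0. Averaged over diets these came without KC916RRL, with 0.722% of all genes called (wider ADAMTS family, parvalbumin and hippocampal neuron lists) and without KC935LL, with 0.339% (wider ADAMTS family and hippocampal neuron lists). Between genotypes on the ketogenic diet the blood list gave 2 without KC846L, where 0.0395% of all genes were called. With diet in the knockout the precursor list gave 1 without KC893RL, beside 1.23% of all genes, and the endothelial list 1 without KC934R, beside 191 of 17715 genes.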

How the data were processed

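Hippocampal RNA was sequenced in 16 mouse libraries, 4 per group. The authors deposited raw counts per gene, and the submitters' processing notes name mm10 and DESeq2; the aligner, counting program, annotation and use of strand are not given in the sources used here. Counts were taken as such because they are whole numbers with unequal totals. Columns carry an animal tag, genotype and diet. Positions and exon lengths are those of GENCODE M21 on GRCm38.

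Genes were filtered with filterByExpr and tested in edgeR 4.0.16 (R 4.3.3) with TMM factors and a robust quasi-likelihood fit of 4 groups to all 16 libraries (12 residual degrees of freedom), two-sided, with Benjamini-Hochberg adjustment over 17469 genes and a threshold of 0.05. SEs come from the F statistic. CPM uses effective library sizes, and log2 CPM a prior count of 2. Counting error is largest for Adamts5 (15 to 50 counts). P-values set a difference between groups against the spread between these samples, estimated over all 4 groups. The procedure was tested on simulated counts in which changes were planted between genotypes only. No diet effect and no deviating library was planted, so the simulation does not show how such cases are handled.

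The members and gene lists were chosen with earlier results of these data known. Named were the 10 members, Kcna1, genes of the wider lists (Hapln2, Hapln4, Timp3, Mmp9, Tnc, Ptprz1, Cspg4, Cspg5, Chst3, Mbp and Pvalb) whatever their values, at most 3 called genes per list, the 8 genes most like Adamts4 and the 1 most like each other member; Fos, Gfap, Gpr17 and Pdgfra were named after their values were seen. One gene that the rule selects is not reported here. Alternatives were other normalizations, no filter, DESeq2 1.42.0, limma-voom (limma 3.58.1), covariates, only the groups compared and each library left out. A fit to libraries that pass 100 CPM for Xist and stay below 10 CPM for Ddx3y was chosen after seeing the data. It keeps only KC888LL and KC893RL of the standard-fed knockouts.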

Additional observations from a re-analysis of the deposited data

Results flagged for a closer look

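Tnr in wild type on the ketogenic diet measured 260.5 CPM in KC846L, against 295.6 to 298.6 CPM in the other 3 libraries of the group. The gap from KC846L to its nearest neighbour was 0.921 of the range of the group, above Dixon's critical value for 4 samples. KC846L is the library of that group in which Ddx3y was expressed. Of 40 combinations of gene and group checked, this was the 1 that stood out, and chance gives about 1 in 20.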

How the results depend on the processing

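No paired analysis was possible because the sample titles share the numbers 1 to 4 while the columns of the table carry animal tags and no number. Tried in turn were edgeR with upper-quartile factors or with the size factors of DESeq2, no low-count filter, DESeq2, limma-voom, only the groups compared, Xist or the mean of the oligodendrocyte list as a covariate, the libraries with Xist and without Ddx3y, and each library left out in turn. The causes of the changes below were not tested. The numbers of genes called depended strongly on these choices, and the members' lack of calls between genotypes mostly did not. In the 4 tested comparisons 0 members were called under every alternative, except 1 (Adamts4, averaged over diets) without KC888LL.

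For the genotype comparison on the standard diet, with 1 gene called, the count was 18 with no filter, 177 with DESeq2, 2 with Xist, 0 with the oligodendrocyte covariate, 0 with only the groups compared, 0 in the libraries with Xist and without Ddx3y, and 0 to 1016 with a library left out, the 1016 without KC888LL. On the ketogenic diet, with 3 called, it was 11 with no filter, 33 with DESeq2, 0 with the oligodendrocyte covariate, 1 in the libraries with Xist and without Ddx3y, and 1 to 13 with a library left out, the 13 without KC916RRL. Averaged over diets, with 17 called, it was 71 with no filter, 416 with DESeq2, 11 with the oligodendrocyte covariate, 1 in the libraries with Xist and without Ddx3y, and 6 to 880 with a library left out, with 880 without KC888LL, 128 without KC916RRL and 60 without KC935LL; the members called then numbered 0 to 1. For the difference of diet effects, with 0 called, it was 2 with no filter and 7 with DESeq2.

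For diet in wild type, with 2 genes and 1 member called, the genes numbered 1 with upper-quartile factors, 12 with DESeq2, 1 with Xist, 1 with the oligodendrocyte covariate, 11 with only the groups compared, 0 in the libraries with Xist and without Ddx3y, and 0 to 3 with a library left out. The members called were 0 with upper-quartile factors, 0 with Xist, 0 with the oligodendrocyte covariate, 0 in the libraries with Xist and without Ddx3y, and 0 to 1 with a library left out. For diet in the knockout, with 202 genes and 1 member called, the genes numbered 677 with DESeq2, 7 with Xist, 2 with the oligodendrocyte covariate, 9 with only the groups compared, 3 in the libraries with Xist and without Ddx3y, and 28 (without KC872RL) to 1096 (without KC888LL) with a library left out. The members called were 2 with DESeq2 (Adamts4 and Adamts9), 0 with the oligodendrocyte covariate, and 1 to 2 with a library left out, Adamts9 being added without KC888LL and Hapln1 without KC934R. After group means were removed, 1 oligodendrocyte gene was among the 100 most like Adamts4, against 14.

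In the 4 tested comparisons signs turned for the following log2 fold changes of members; a value under 0.005 in size with all libraries was taken to have no direction, while under an alternative any value of the other sign is listed. On the standard diet Tnr was 0.0056 with upper-quartile factors, 0.0015 with Xist and -0.0719 to 0.0406 with a library left out, and Adamts4 was 0.0257 in the libraries with Xist and without Ddx3y. On the ketogenic diet the oligodendrocyte covariate gave -0.1329 for Adamts1, 0.0423 for Adamts5 and 0.1325 for Tnr; with a library left out Adamts1 ran from -0.2884 to 0.413, Vcan from -0.0073 to 0.138, Tnr from -0.0603 to 0.0455 and Hapln1 from -0.113 to 0.2009. Averaged over diets Adamts1 was -0.061 with limma-voom, -0.1605 with the oligodendrocyte covariate and -0.2287 to 0.1193 with a library left out; Tnr was 0.0583 with the covariate and -0.041 to 0.0172 with a library left out, Adamts5 ran from -0.0591 to 0.2061 and Adamts9 from -0.0089 to 0.0458. For the difference of diet effects Acan was 0.1949 with Xist, 0.226 in the libraries with Xist and without Ddx3y and -0.1773 to 0.1391 with a library left out; Bcan was 6e-04 with the oligodendrocyte covariate and -0.1834 to 0.0336 with a library left out, and Adamts1 ran from -0.1195 to 0.5874. Signs turned in the diet comparisons too. In wild type the oligodendrocyte covariate gave -0.2051 for Adamts1, 0.0131 for Adamts5, 0.1129 for Vcan and 0.1425 for Tnr; the libraries with Xist and without Ddx3y gave 0.2154 for Adamts5, 0.0856 for Vcan and 0.0298 for Tnr; and with a library left out Adamts5 ran from -0.4392 to 0.0336, Adamts9 from -0.0423 to 0.0671, Vcan from -0.1154 to 0.0508 and Tnr from -0.0505 to 0.0237. In the knockout the covariate gave -0.1498 for Adamts1, -0.3055 for Ncan, -0.0212 for Acan and 0.2909 for Tnr, and Tnr ran from -0.0737 to 0.0389 with a library left out. With the list median in place of its mean, the diet difference of the relative level of Adamts4 was -0.25 in wild type and -0.06 in the knockout. The depth limits Adamts5 most, at 15 to 50 counts per library.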
